A study of Homo sapiens with 9 samples.

Results

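The mRNAs of 10 genes of the Notch pathway were followed after KDM4C silencing: the receptors NOTCH1, NOTCH2 and NOTCH3, the ligands JAG1, JAG2 and DLL1, the glycosyltransferase LFNG, and the target genes HES1, HES4 and HEY1. They were picked by gene symbol and make up 10 of the 32906 genes listed. Cells labelled Huh7, an established human hepatocellular carcinoma line, were transfected with a Scramble siRNA (labelled control) or with 1 of 2 siRNAs against the histone demethylase KDM4C, Si-KDM4C#1 or Si-KDM4C#2 (both labelled KDM4C knockdown). RNA was taken 48 h after transfection, and each of the 3 groups had 3 libraries. The groups share the cell line and the transfection, and differ as labelled in the siRNA alone. The libraries are numbered but not said to come from separate cultures, so the p-values measure the spread between these libraries, which may be technical.

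Notch receptors sit in the membrane and are engaged by Jagged or Delta-like ligands on a neighboring cell. The metalloprotease ADAM10 and then the γ-secretase complex cut the bound receptor, and the released intracellular domain joins the DNA-binding protein RBPJ and a Mastermind coactivator in the nucleus, where it turns on the HES and HEY repressor genes. In the developing liver this route, with JAG1 as ligand and NOTCH2 as receptor, directs the formation of bile ducts.

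The core of the RBPJ binding motif, TGGGAA, was looked for on both strands in the window from 250 bases before to 50 bases after the start of each gene (RefSeq, GRCh38.p14), where 8 of the 10 members had an entry. It was present in 24.0% of 35116 such promoter windows. The HES1 window (chr3:194135898-194136197, plus strand) held 2 matches, from 84 to 79 and from 70 to 65 bases before the start, and the HES4 window (chr1:1000048-1000347, minus strand) held 1, from 76 to 71 bases before it. Both windows are printed 5′ to 3′ with the matches in capitals, because these are the target genes whose levels are compared with those of the receptors.
HES1: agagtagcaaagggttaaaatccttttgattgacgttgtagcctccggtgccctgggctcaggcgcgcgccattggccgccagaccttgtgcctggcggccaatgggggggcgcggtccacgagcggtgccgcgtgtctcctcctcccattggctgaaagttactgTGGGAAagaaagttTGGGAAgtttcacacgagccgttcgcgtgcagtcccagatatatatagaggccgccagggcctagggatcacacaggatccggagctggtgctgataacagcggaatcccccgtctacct
HES4: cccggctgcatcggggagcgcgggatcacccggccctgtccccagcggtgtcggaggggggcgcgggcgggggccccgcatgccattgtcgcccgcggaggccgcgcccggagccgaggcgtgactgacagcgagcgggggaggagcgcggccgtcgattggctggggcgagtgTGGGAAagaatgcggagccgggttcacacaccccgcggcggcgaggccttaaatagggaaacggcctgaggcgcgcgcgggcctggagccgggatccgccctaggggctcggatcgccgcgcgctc
LFNG has 2 annotated starts, and each of its windows held 1 match. The windows of NOTCH1, NOTCH2, NOTCH3, JAG1 and JAG2 held none, which says only that these letters are not in this window.

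KDM4C mRNA fell with both siRNAs. It was 4.88, 4.63 and 4.57 FPKM (fragments per kilobase of exon, scaled to library size) in Scramble, 1.18, 1.1 and 1.13 after Si-KDM4C#1 transfection, and 0.256, 0.349 and 0.256 after Si-KDM4C#2 transfection. In log2(FPKM + 1), the log2 fold change was -1.41 (adjusted p = 2.65e-07) and -2.15 (adjusted p = 5.45e-08) in limma-trend. The libraries held from 14597500 to 18058552 fragments, as fitted to the FPKM values. Of a list of 15 hepatocyte genes, 11 are among the genes listed, and ALB, APOB, APOC3 and TTR are not, so their levels are unknown. The 11 listed mRNAs were all below 1 FPKM throughout, the highest being APOA2 at 0.248 FPKM. The epithelial keratins KRT8 and KRT18 reached 205 and 167 FPKM, and the epithelial cadherin CDH1 was at or below 0.0322. The summed epithelial list was at 330 to 353 FPKM in Scramble, 289.7 to 309 in the Si-KDM4C#1 group and 240.1 to 254 in the Si-KDM4C#2 group. KRT18 was on average highest with Si-KDM4C#1 (162 FPKM against 141 in Scramble) while KRT8 was lower with it (138 against 199.5), and the part of this in the results was not tested. The cells are therefore called Huh7 only as labelled. The endothelial and leukocyte lists were under 1 FPKM throughout, and the fibroblast list was not: its summed level was 16.3 to 17.9 FPKM in Scramble, 15.4 to 16.3 in the Si-KDM4C#1 group and 18.2 to 18.9 in the Si-KDM4C#2 group, most of it COL1A1. COL1A1 itself was on average at 14.8 FPKM in Scramble, 15.4 in the Si-KDM4C#1 group and 17.5 in the Si-KDM4C#2 group. PDGFRB of that list was lower with both siRNAs, at 1.95 FPKM in Scramble, 0.308 in the Si-KDM4C#1 group and 1.03 in the Si-KDM4C#2 group. The part of the list in the results was not tested.

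Of the 10 genes, 8 reached a group mean of 1 FPKM in 1 or more groups and were tested together with all 14363 genes that did. A gene is said to have risen or fallen at an adjusted p (FDR) below 0.05, and is called at an FDR below 0.05 and a fold change above 2. With Si-KDM4C#1, NOTCH1, JAG2 and HES4 rose and LFNG and HEY1 fell, which is 3 and 2 of 8. Among all tested genes 31.7% rose and 33.9% fell in that comparison. With Si-KDM4C#2, HES4 rose and NOTCH2, JAG1, LFNG and HEY1 fell, 1 and 4 of 8 where 34.4% of all genes rose and 25% fell. Between the siRNAs, NOTCH1, NOTCH2, JAG1, JAG2 and HEY1 were lower with Si-KDM4C#2, and 0 members were higher by limma-trend under the main settings or by limma voom (HES4 alone was higher at an unadjusted p below 0.05, and it passed under other settings given with that gene). The shares for all genes in this direct comparison were 26.5% lower and 35.9% higher. Both siRNA comparisons use the same Scramble libraries.

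No member was called in any comparison by limma-trend with a pseudocount of 1. With a pseudocount of 0.1, JAG1 was called with Si-KDM4C#2 (-1.16), and JAG1 (-1.28) and JAG2 (-1.17) in the direct comparison. Members with an unadjusted p below 0.05 numbered 5, 5 and 6 of 8, and limma voom on recovered fragments called 2 higher with Si-KDM4C#1 (NOTCH1 and JAG2), 1 lower with Si-KDM4C#2 (JAG1), and 3 lower in the direct comparison (NOTCH1, JAG1 and JAG2). Over all genes, the main settings called 4.04% higher and 4.83% lower with Si-KDM4C#1, 2.6% and 2.3% with Si-KDM4C#2, and 4.41% and 2.49% in the direct comparison. Limma voom called more of the 16008 genes it tested, 1199 higher and 1824 lower with Si-KDM4C#1. It called 872 and 1120 with Si-KDM4C#2, and 1578 and 1024 in the direct comparison. The pseudocount of 0.1 called 900 and 1402, 758 and 685, and 1327 and 610 of 14363 genes. No share over all genes is given for the unadjusted p. That share is at least as large as the share at an FDR below 0.05, so the member counts are not read as a result about the members. The changes of all genes moved with GC content. The median log2 fold change of the 2296 genes under 40% GC was -0.28 for Si-KDM4C#1 and -0.10 for Si-KDM4C#2, and that of the 54 genes at or above 70% GC was 0.42 and 0.56. After each library had been corrected for GC content along a lowess curve (the GC adjustment), the all-gene calls with Si-KDM4C#2 went from 373 higher and 330 lower to 238 and 376, and those of the direct comparison from 634 and 358 to 490 and 456. The adjusted values are given beside each member that they change.

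**Figure D1:**
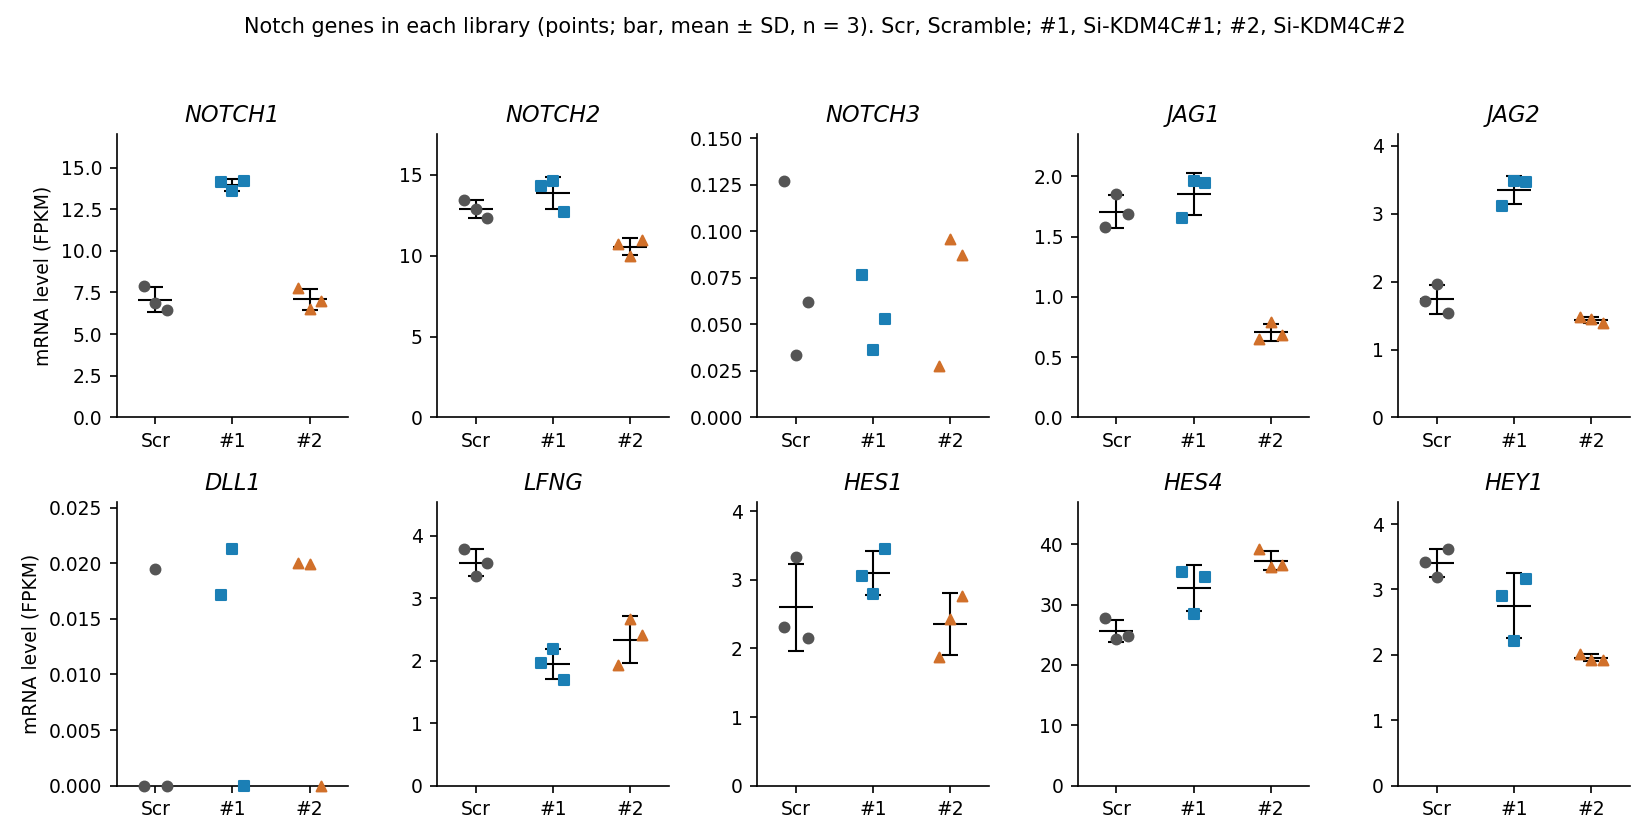
mRNA level in FPKM (vertical axis, a scale per gene starting at 0) of the 10 Notch genes in the 9 libraries. Points are libraries by group (Scr, Scramble; #1, Si-KDM4C#1; #2, Si-KDM4C#2), and bars are the mean ± SD of 3 libraries where the gene was tested. NOTCH1 and JAG2 stand higher with Si-KDM4C#1, JAG1 lower with Si-KDM4C#2, and LFNG lower with both.

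NOTCH1, a receptor of many epithelia and blood lineages, rose with Si-KDM4C#1 and did not change detectably with Si-KDM4C#2. The gene (ENSG00000148400, chromosome 9 from 136494433 to 136545786, minus strand, GRCh38) was at 7.91, 6.85 and 6.47 FPKM in Scramble, at 14.2, 13.6 and 14.2 in the Si-KDM4C#1 libraries, and at 7.76, 6.51 and 7.0 in the Si-KDM4C#2 libraries. All Si-KDM4C#1 libraries lay above the other libraries, while those of Si-KDM4C#2 overlapped with Scramble. The log2 fold change with Si-KDM4C#1 was 0.89 (SE 0.075, adjusted p = 4.57e-06 in limma-trend), a ratio of mean FPKM of 1.97. With Si-KDM4C#2 it was 0.00 (95% interval -0.17 to 0.17, adjusted p = 0.969). The 2 siRNAs differed by -0.89 (adjusted p = 5.95e-06). Each library held between 1052 and 2652 fragments of this mRNA. In bulk RNA, fewer cells carrying an mRNA and less mRNA per cell cannot be told apart.

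The NOTCH1 transcript has a GC content of 62.9%, and the median of the 1509 genes between 60% and 65% GC was 0.24 for Si-KDM4C#1 and 0.31 for Si-KDM4C#2. After the GC adjustment NOTCH1 was at 0.63 with Si-KDM4C#1 (adjusted p = 6.22e-06) and at -0.32 with Si-KDM4C#2 (adjusted p = 0.000834). A change with Si-KDM4C#2 thus passed only with the adjustment. The difference between the siRNAs was -0.95 with it. NOTCH1 had the widest range of group means among the members on the log2(FPKM + 1) scale, 0.89, although by the ratio of mean FPKM between the siRNAs JAG1 (0.381) and JAG2 (0.429) differed more than NOTCH1 (0.508). The tested genes with the most similar profile over the 9 libraries, each centred on its own mean, were FASN (fatty acid synthase), URB1 (a ribosome biogenesis factor) and MON1A (a vesicle trafficking protein), with root mean square differences of 0.0521, 0.0550 and 0.0669 on the log2(FPKM + 1) scale. FASN was at 103 ± 9.73 FPKM in Scramble, 193 ± 0.521 for Si-KDM4C#1 and 96.0 ± 6.81 for Si-KDM4C#2 (mean ± SD, n = 3).

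NOTCH2 was the most abundant of the Notch receptors in Scramble and fell modestly with Si-KDM4C#2. The gene (ENSG00000134250, chromosome 1 from 119911553 to 120069626) was at 13.5, 12.9 and 12.3 FPKM in Scramble, 14.3, 14.6 and 12.7 in the Si-KDM4C#1 libraries, and 10.7, 9.98 and 10.97 in the Si-KDM4C#2 libraries. The Si-KDM4C#2 libraries lay below all others, and the Si-KDM4C#1 libraries overlapped with Scramble. Si-KDM4C#2 changed it by -0.27 on the log2 scale (SE 0.060, adjusted p = 0.0039, ratio of mean FPKM 0.819), and Si-KDM4C#1 by 0.10 (95% interval -0.04 to 0.23, adjusted p = 0.183). The direct difference was -0.36 (adjusted p = 0.000533). The difference for Si-KDM4C#1 passed the test in limma voom (0.17, adjusted p = 0.00424) and without Si-KDM4C#1 replicate 3 (0.15, adjusted p = 0.0394). The human-specific partial copies of NOTCH2 share its sequence, and the 1 that is listed, NOTCH2NL, had between 9 and 33 fragments per library. How fragments common to both were assigned is not given in the sources used here, so the NOTCH2 level is uncertain to that extent.

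NOTCH3 mRNA was near the detection limit. The gene (ENSG00000074181, chromosome 19 from 15159038 to 15200981) was at 0.127, 0.033 and 0.062 FPKM in Scramble, 0.077, 0.036 and 0.053 in the Si-KDM4C#1 libraries, and 0.027, 0.096 and 0.087 in the Si-KDM4C#2 libraries, which is 33, 26 and 32 fragments per group. The libraries of the groups overlapped, and a difference was not detectable at this depth. The other receptor gene, NOTCH4, was likewise not tested, with 0.125 FPKM as its highest level.

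JAG2, like NOTCH1, rose with Si-KDM4C#1. This ligand gene (ENSG00000184916, chromosome 14 from 105140981 to 105168824) was at 1.71, 1.97 and 1.54 FPKM in Scramble, 3.12, 3.48 and 3.46 in the Si-KDM4C#1 libraries, and 1.47, 1.45 and 1.39 in the Si-KDM4C#2 libraries. All Si-KDM4C#1 libraries lay above all others, and all Si-KDM4C#2 libraries lay below those of Scramble by a small margin. On the log2 scale the change was 0.67 with Si-KDM4C#1 (SE 0.079, adjusted p = 4.52e-05, ratio of mean FPKM 1.93) and -0.17 with Si-KDM4C#2 (95% interval -0.34 to 0.01, adjusted p = 0.0973). The siRNAs differed by -0.84 (adjusted p = 1.2e-05). JAG2 transcripts have 64% GC. After the GC adjustment the rise with Si-KDM4C#1 was 0.39 (adjusted p = 0.00362), and JAG2 was lower with Si-KDM4C#2 by a log2 fold change of -0.51 (adjusted p = 0.000864). Limma voom likewise put JAG2 past the threshold with Si-KDM4C#2 (-0.33, adjusted p = 0.0339). Exons of JAG2 share 469 bases with a listed non-coding transcript on the same strand, AL512356.1, which was at or below 0.120 FPKM.

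JAG1, the ligand whose loss causes Alagille syndrome, fell with Si-KDM4C#2 and not detectably with Si-KDM4C#1. The gene (ENSG00000101384, chromosome 20 from 10637684 to 10673999) was at 1.58, 1.85 and 1.69 FPKM in Scramble, 1.66, 1.96 and 1.95 in the Si-KDM4C#1 libraries, and 0.652, 0.788 and 0.681 in the Si-KDM4C#2 libraries. Every Si-KDM4C#2 library was under the other 6 libraries. The log2 fold change with Si-KDM4C#2 was -0.67 (SE 0.089, adjusted p = 0.000152). On the FPKM scale the ratio of means was 0.414, a larger change than the log2(FPKM + 1) value shows, since the pseudocount of 1 compresses changes of genes at this level. With Si-KDM4C#1 the log2 fold change was 0.08 (95% interval -0.12 to 0.28, adjusted p = 0.476), and the direct difference was -0.74 (adjusted p = 6.28e-05). Each library held from 94 to 291 fragments. JAG1 passed the filter through Scramble and Si-KDM4C#1 and not through the group in which it was low, and with no filter the adjusted p for Si-KDM4C#2 was 0.000807. JAG1 has 49.6% GC and the GC adjustment left it at -0.71 with Si-KDM4C#2. A listed antisense transcript that shares 79 exon bases with JAG1, AL050403.2, was at or below 0.0973 FPKM.

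DLL1 (ENSG00000198719, chromosome 6 from 170282206 to 170306565), a Delta-like ligand, was practically undetected. Its libraries held 0 or 1 fragment each, with 1 fragment in Scramble, 2 for Si-KDM4C#1 and 2 for Si-KDM4C#2 over the 3 libraries, so no difference could be seen at this depth. A count of 0 allows up to 3 fragments, which for the exon length of DLL1 is 0.0515 to 0.0637 FPKM depending on the library (counting error only). Of the other canonical ligands, DLL3 passed the filter through Si-KDM4C#2 alone and is given with no test. It was at 0.401 FPKM in Scramble, 0.506 for Si-KDM4C#1 and 1.07 for Si-KDM4C#2 (means of 3 libraries). DLL4 was under 1 FPKM in every library.

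**Figure D2:**
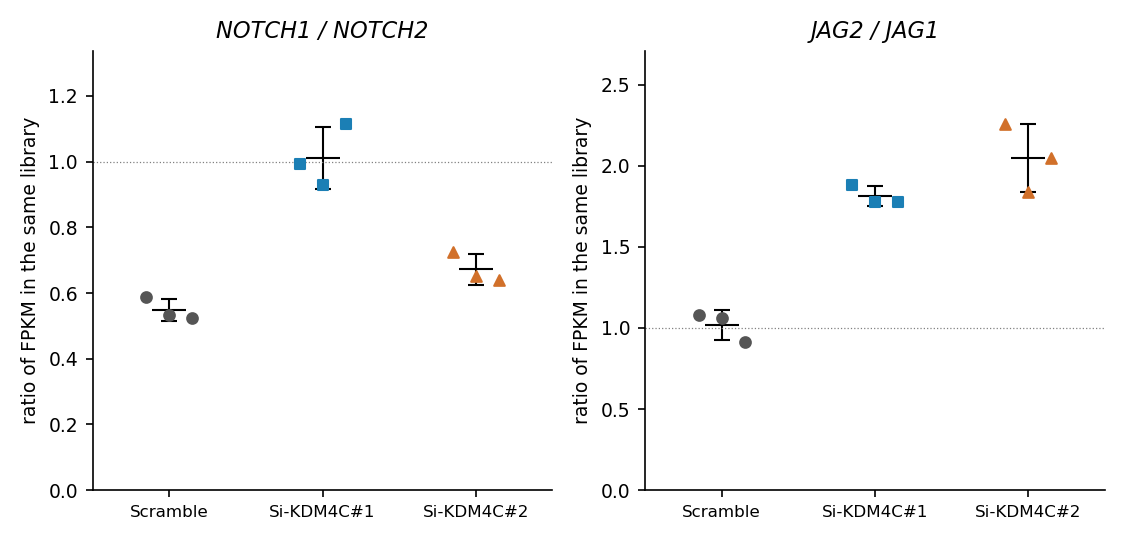
Ratio of FPKM within each library (vertical axis, no unit) of the receptors NOTCH1 and NOTCH2 (left) and of the ligands JAG2 and JAG1 (right), with points for libraries and bars for the mean ± SD (n = 3). The receptor ratio is near 1 only with Si-KDM4C#1, and the ligand ratio is at least 1.78 in every library of both siRNAs and at most 1.08 in Scramble.

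Within libraries, the ratio between the receptors and that between the ligands differed from group to group. These ratios were computed after the levels had been seen and are given with no test. The ratio of NOTCH1 to NOTCH2 was 0.548 ± 0.034 in Scramble, 1.01 ± 0.094 for Si-KDM4C#1 and 0.672 ± 0.047 for Si-KDM4C#2 (mean ± SD, n = 3). That of JAG2 to JAG1 was 1.02 ± 0.091, 1.81 ± 0.061 and 2.05 ± 0.211. The genes of each pair differ in GC content (62.9% for NOTCH1 and 49.4% for NOTCH2, 64% for JAG2 and 49.6% for JAG1), and the ratios are of deposited levels. On the log2(FPKM + 1) scale NOTCH1 changed by 0.80 more than NOTCH2 with Si-KDM4C#1 and by 0.27 more with Si-KDM4C#2, and after the GC adjustment by 0.53 and by -0.0045. JAG2 changed by 0.59 and 0.50 more than JAG1, and after the adjustment by 0.31 and 0.20. The higher ligand ratio had different components in the 2 knockdowns: JAG2 was higher with Si-KDM4C#1 at a JAG1 level that overlapped with Scramble, and JAG1 was lower with Si-KDM4C#2. The summed level of the 3 receptors was 20.04 ± 1.34 FPKM in Scramble, 27.9 ± 0.823 for Si-KDM4C#1 and 17.7 ± 0.994 for Si-KDM4C#2. For the 3 ligands the sums were 3.45 ± 0.336, 5.22 ± 0.375 and 2.16 ± 0.091 FPKM. Both sums had their highest libraries with Si-KDM4C#1 and their lowest with Si-KDM4C#2, with no overlap between the groups.

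LFNG, the Golgi enzyme that extends the O-fucose of Notch receptors and changes which ligand they answer to, fell with both siRNAs. The gene (ENSG00000106003, chromosome 7 from 2512529 to 2529177, plus strand) was at 3.78, 3.35 and 3.57 FPKM in Scramble, 1.96, 2.18 and 1.69 in the Si-KDM4C#1 libraries, and 1.93, 2.67 and 2.42 in the Si-KDM4C#2 libraries. All 6 knockdown libraries were below all 3 Scramble libraries. Si-KDM4C#1 lowered it by a log2 fold change of -0.63 (SE 0.099, adjusted p = 0.000315) and Si-KDM4C#2 by one of -0.46 (adjusted p = 0.00301), ratios of mean FPKM of 0.546 and 0.656. The direct difference of 0.18 did not pass the test (95% interval -0.05 to 0.40, adjusted p = 0.146), except without Si-KDM4C#2 replicate 1 (0.27, adjusted p = 0.0341). LFNG has 62.7% GC, close to that of NOTCH1, and the GC adjustment made both falls larger, -0.89 and -0.77. The median of genes between 60% and 65% GC was above 0 with both siRNAs.

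**Figure D3:**
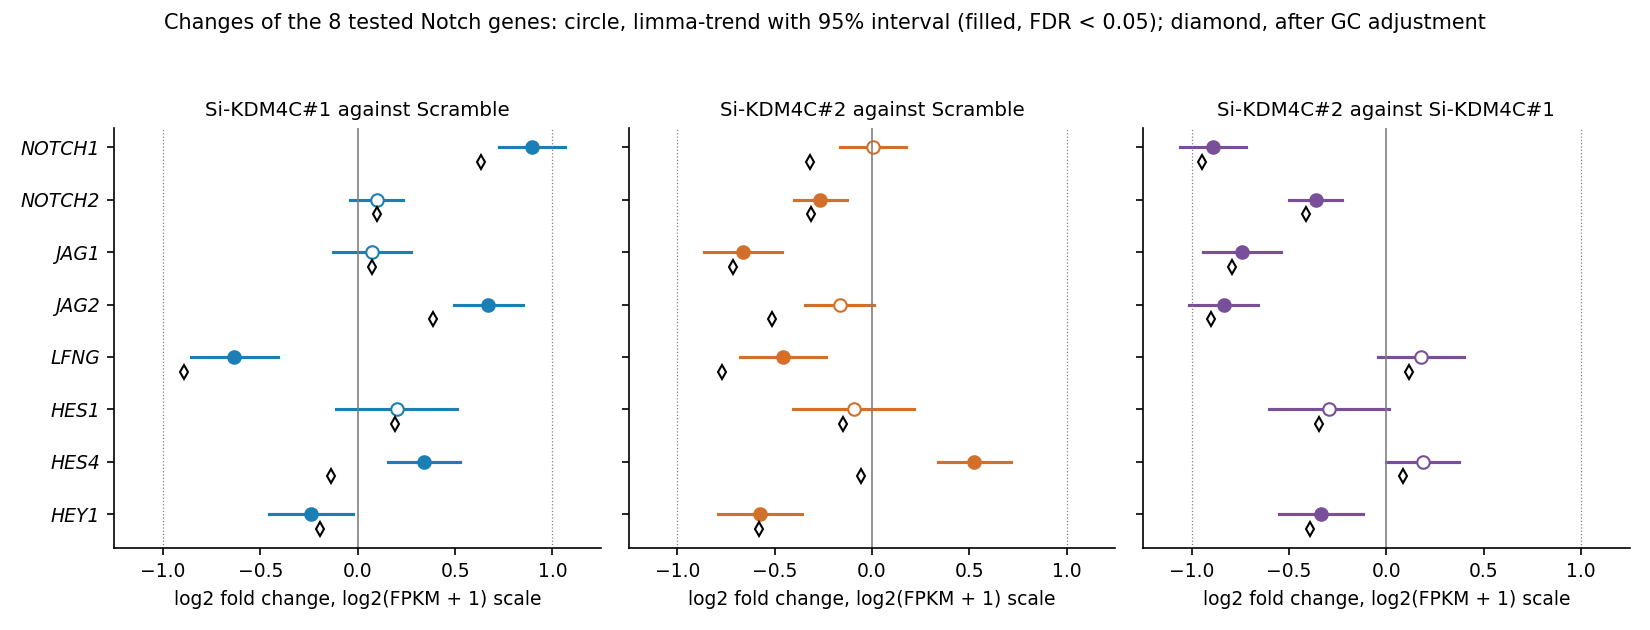
Log2 fold change on the log2(FPKM + 1) scale (horizontal axis) of the 8 tested Notch genes in each comparison. Circles are limma-trend estimates with 95% intervals, filled at an FDR below 0.05, diamonds are the estimates after GC adjustment, and dotted lines mark a 2-fold change. No filled circle lies beyond a dotted line, and the diamonds of HES4 lie on the other side of 0 from its circles in both siRNA panels.

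HES1, the target gene with the 2 adjacent motif matches, did not change detectably against Scramble with either siRNA. The gene (ENSG00000114315, chromosome 3 from 194136145 to 194138732) was at 2.31, 3.32 and 2.15 FPKM in Scramble, 3.06, 2.79 and 3.44 in the Si-KDM4C#1 libraries, and 1.88, 2.43 and 2.76 in the Si-KDM4C#2 libraries. Scramble overlapped with both knockdowns, and the libraries of Si-KDM4C#1 were all above those of Si-KDM4C#2. Its log2 fold change was 0.20 for Si-KDM4C#1 (95% interval -0.11 to 0.51, adjusted p = 0.227) and -0.09 for Si-KDM4C#2 (95% interval -0.40 to 0.22, adjusted p = 0.576). The direct difference was -0.29 (95% interval -0.60 to 0.02, adjusted p = 0.0892), and it passed the test in limma voom (-0.53, adjusted p = 0.0165) and after quantile normalization (-0.42, adjusted p = 0.0291). Scramble replicate 2 was the highest of its group, and without it the difference for Si-KDM4C#1 (0.34, adjusted p = 0.0378) and the direct difference (adjusted p = 0.0428) passed. HES1 rested on 60 to 114 fragments per library.

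HES4, a HES family repressor, was the most abundant member and its deposited level was higher with both siRNAs. The gene (ENSG00000188290, chromosome 1 from 998962 to 1000172) was at 27.8, 24.4 and 24.7 FPKM in Scramble, 35.3, 28.4 and 34.6 in the Si-KDM4C#1 libraries, and 39.1, 36.2 and 36.5 in the Si-KDM4C#2 libraries. The groups did not overlap. Its log2 fold change was 0.34 with Si-KDM4C#1 (SE 0.083, adjusted p = 0.00489) and 0.53 with Si-KDM4C#2 (adjusted p = 0.000428). Neither rise kept an FDR below 0.05 after the GC adjustment. HES4 has 73.9% GC, the highest of the members, and the median of all 54 genes at or above 70% GC was 0.42 and 0.56, values close to those of HES4. After the GC adjustment it was at -0.14 (adjusted p = 0.0839) and -0.05 (adjusted p = 0.489). After quantile normalization the change with Si-KDM4C#1 was 0.15 (adjusted p = 0.12). The direct difference was 0.19 (adjusted p = 0.0755), and it passed the test after quantile normalization (0.25, adjusted p = 0.0206) and without Si-KDM4C#1 replicate 1 (0.24, adjusted p = 0.0422).

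HEY1, a target gene that encodes a repressor related to the HES proteins, was lowest with Si-KDM4C#2. It was at 3.42, 3.19 and 3.61 FPKM in Scramble, 2.90, 2.20 and 3.16 in the Si-KDM4C#1 libraries, and 2.02, 1.93 and 1.92 in the Si-KDM4C#2 libraries. All 6 knockdown libraries were below the Scramble libraries, although the nearest libraries of Si-KDM4C#1 and Scramble were at 3.16 and 3.19. The log2 fold change with Si-KDM4C#2 was -0.58 (SE 0.096, adjusted p = 0.000611, ratio of mean FPKM 0.574). With Si-KDM4C#1 it was -0.24 (95% interval -0.46 to -0.02), with an adjusted p of 0.0497 that was lost in 7 of 9 alternatives and in 8 of 9 fits that left out a library (every library but Si-KDM4C#1 replicate 3), with adjusted p-values of 0.0184 to 0.161. The siRNAs differed by -0.34 (adjusted p = 0.012). HEY1 has 47.3% GC, and the GC adjustment left it at -0.58 with Si-KDM4C#2 and -0.19 with Si-KDM4C#1 (adjusted p = 0.115).

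**Figure D4:**
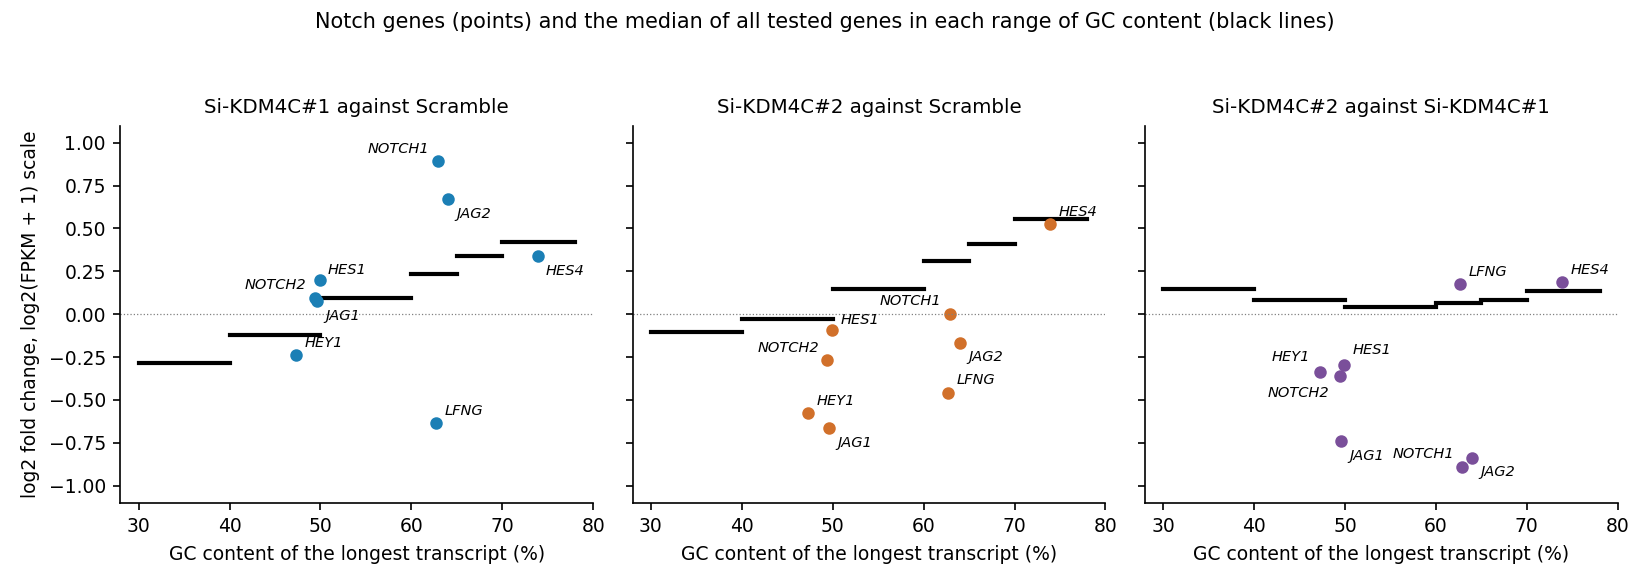
Log2 fold change on the log2(FPKM + 1) scale (vertical axis) against the GC content of the longest transcript in percent (horizontal axis) for the 8 tested Notch genes (points), with the median of all tested genes in each range of GC content (black lines; the outer ranges are drawn in part). The lines rise from left to right in both siRNA panels and stay between 0.04 and 0.15 in the direct comparison, and HES4 lies near the line in all 3 panels.

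The rest of the pathway was described with a list of 77 further genes, of which 65 were tested. With Si-KDM4C#1, 24 rose and 28 fell, with Si-KDM4C#2, 26 rose and 17 fell, and in the direct comparison 31 were higher and 20 lower with Si-KDM4C#2. Over all tested genes the shares were 31.7% and 33.9%, 34.4% and 25%, and 35.9% and 26.5%. They are the background for the count of every role that follows under the main settings. For the counts of genes that rose or fell after the GC adjustment, no share over all genes is given. In 62 of the 65 the mean was at least 1 FPKM in all groups, while DLL3, HES2 and MAML2 passed the filter through some groups only. The 62 gave 23 and 27, 25 and 16, and 30 and 19. The median log2 fold change of the 65 was -0.03, 0.07 and 0.12, beside -0.03, 0.06 and 0.08 over all genes tested. After the GC adjustment the counts were 26 and 26, 19 and 23, and 23 and 23. At the limits for a call, 5 were called higher and 3 lower with Si-KDM4C#1, 1 and 3 with Si-KDM4C#2, and 6 and 5 in the direct comparison, where the shares over all genes were 4.04% and 4.83%, 2.6% and 2.3%, and 4.41% and 2.49%. After the GC adjustment the fold changes of HDAC2 (-0.80), NRARP (0.79) and CDKN1A (0.995) with Si-KDM4C#1 and of ID1 in the direct comparison (0.97) were within the limit of 2. It put past that limit ID1 with Si-KDM4C#1 (-1.17), HES2 with Si-KDM4C#2 (-1.01), and in the direct comparison PSEN2 (-1.04), POFUT1 (-1.02), MYC (-1.02) and DNER (-1.02). The calls after it were 3 and 3, 1 and 4, and 5 and 9 of the 65. Over the 14343 genes in the GC-adjusted fit they were 464 and 602, 238 and 376, and 490 and 456.

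Among the 9 tested proteases and γ-secretase subunits, 2 rose and 3 fell with Si-KDM4C#1, and 3 rose and 4 fell with Si-KDM4C#2 (4 and 3, and 4 and 4, after the GC adjustment). ADAM10, which makes the ligand-dependent cut, was at 8.11 ± 0.281 FPKM in Scramble and 5.99 ± 0.096 with Si-KDM4C#1 (log2 fold change -0.38, adjusted p = 3.55e-05), and at 8.32 ± 0.217 with Si-KDM4C#2 (0.03, adjusted p = 0.527). After the GC adjustment its fall with Si-KDM4C#1 was -0.12 (adjusted p = 0.0254). NCSTN, the γ-secretase subunit that receives the substrate, rose with Si-KDM4C#2 (0.42, adjusted p = 6.84e-05) and was at -0.03 with Si-KDM4C#1 (adjusted p = 0.609). PSEN2, one of the alternative catalytic subunits, fell from 15.6 ± 1.16 FPKM to 6.47 ± 0.551 with Si-KDM4C#2 (-1.16, adjusted p = 8.6e-07), and was at 13.9 ± 0.669 with Si-KDM4C#1 (-0.16, adjusted p = 0.0701). Among the 3 other tested glycosylation genes, 2 rose and 1 fell with Si-KDM4C#1, and 1 rose and 2 fell with Si-KDM4C#2 (2 and 1, and 0 and 2, after the GC adjustment).

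RBPJ, through which the receptors reach DNA, fell with both siRNAs and more with Si-KDM4C#2. It was at 17.5, 18.1 and 18.5 FPKM in Scramble, 15.7, 14.9 and 15.6 in the Si-KDM4C#1 libraries, and 9.86, 9.74 and 10.6 in the Si-KDM4C#2 libraries, with no overlap between the groups. The changes were -0.21 (adjusted p = 0.00206) and -0.78 (adjusted p = 6.52e-07), and the direct difference was -0.57 (adjusted p = 3.48e-06). RBPJ has 38% GC, and after the GC adjustment its change with Si-KDM4C#1 was 0.06 (adjusted p = 0.315), while with Si-KDM4C#2 it was -0.67 (adjusted p = 2.2e-06). Of the 9 tested coactivators, RBPJ among them, 2 rose and 6 fell with Si-KDM4C#1, and 2 rose and 3 fell with Si-KDM4C#2 (2 and 4, and 1 and 4, after the GC adjustment). KAT2B, a histone acetyltransferase of this list, fell from 8.47 ± 0.341 FPKM to 1.56 ± 0.218 with Si-KDM4C#1 (-1.89, adjusted p = 6.5e-08) and to 4.99 ± 0.499 with Si-KDM4C#2 (-0.66, adjusted p = 7.5e-05).

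Of the 15 corepressor genes tested, 5 rose and 8 fell with Si-KDM4C#1, and 8 rose and 0 fell with Si-KDM4C#2. With Si-KDM4C#2, 0 of the 15 were lower at an unadjusted p below 0.05. At an FDR below 0.05, limma voom gave 7 higher and 1 lower, and the GC adjustment 6 higher and 2 lower. No share over all genes is given for any of these alternative counts, so they are not set against a background. The histone deacetylase HDAC1 was at 21.4 ± 0.268 FPKM in Scramble, 47.2 ± 1.83 with Si-KDM4C#1 (1.11, adjusted p = 2.4e-08) and 48.5 ± 1.42 with Si-KDM4C#2 (1.15, adjusted p = 4.7e-08). The related HDAC2 fell with Si-KDM4C#1 (-1.07, adjusted p = 2.8e-07) and was at 0.11 with Si-KDM4C#2 (adjusted p = 0.12). NCOR1, a scaffold for histone deacetylases, fell from 18.1 ± 0.208 to 6.64 ± 0.965 FPKM with Si-KDM4C#1 (-1.33, adjusted p = 3.9e-07) and was at 17.7 ± 0.11 with Si-KDM4C#2. These corepressors serve many transcription factors besides RBPJ. In the direct comparison HDAC2 (1.18), NCOR1 (1.3), the histone demethylase KDM5A (1.12) and KAT2B (1.23) were all higher with Si-KDM4C#2.

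**Figure D5:**
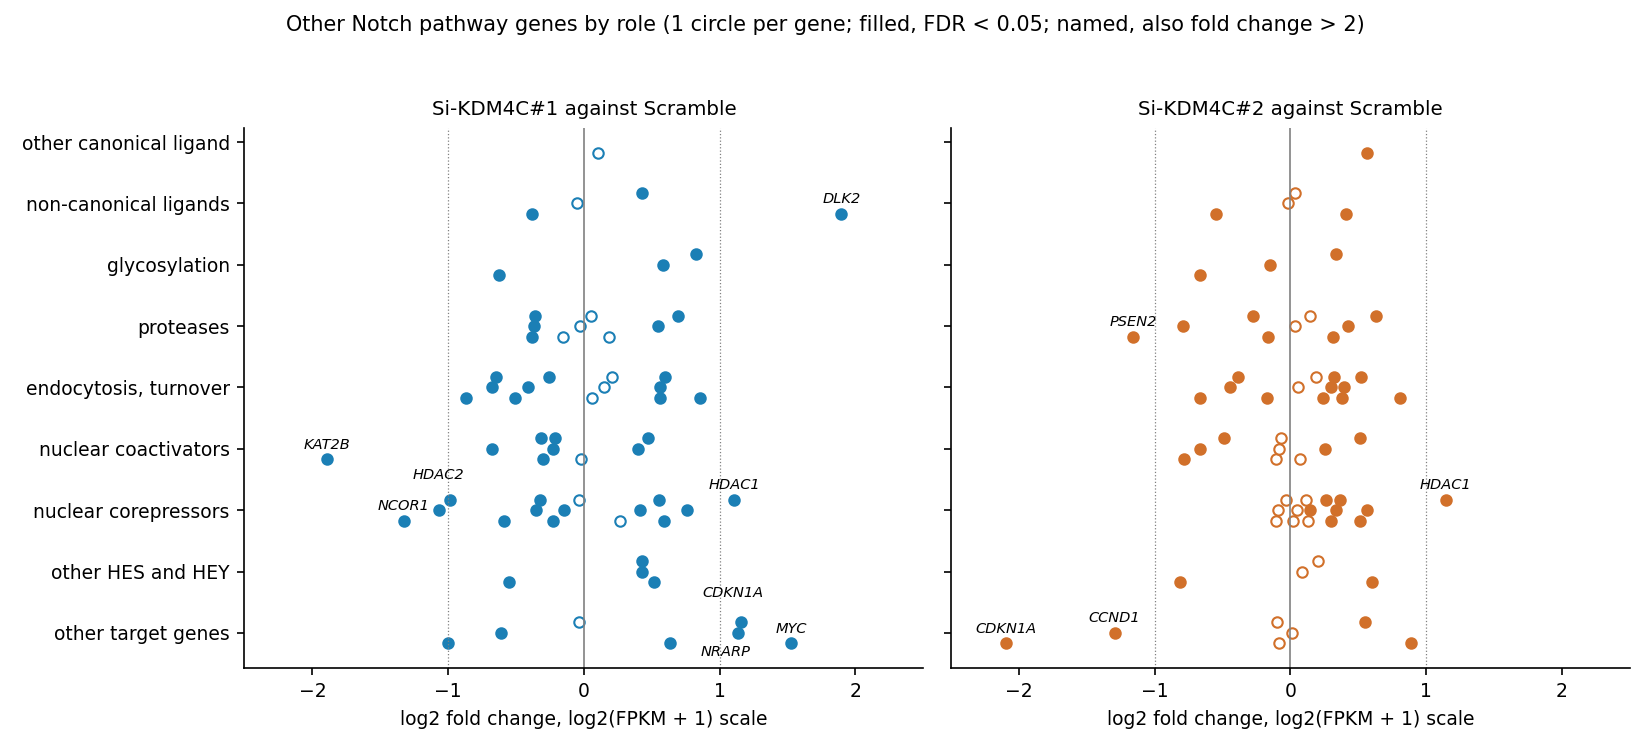
Log2 fold change on the log2(FPKM + 1) scale (horizontal axis) of the 65 other tested Notch pathway genes, grouped by role (vertical axis), with each siRNA against Scramble. Each circle is a gene, filled at an FDR below 0.05 and named where the fold change is also above 2, and dotted lines mark a 2-fold change. Each role with more than 1 tested gene holds genes on both sides of 0 in both panels.

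Non-canonical ligands and genes of endocytosis and turnover held 3 of the genes called. DLK2, a Delta-like protein without the motif that activates Notch, rose from 2.39 ± 0.457 FPKM to 11.5 ± 0.415 with Si-KDM4C#1 (1.90, adjusted p = 3.4e-07) and to 3.50 ± 0.514 with Si-KDM4C#2 (0.41, adjusted p = 0.0083). The Deltex ubiquitin ligase genes DTX3L and DTX4 were called in the direct comparison in opposite directions, at 1.17 and -1.26. Of the 13 tested genes of endocytosis and turnover, 4 rose and 6 fell with Si-KDM4C#1, and 7 rose and 4 fell with Si-KDM4C#2 (6 and 6, and 5 and 4, after the GC adjustment).

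Of the 4 other HES and HEY genes tested, 3 rose and 1 fell with Si-KDM4C#1, and 1 rose and 1 fell with Si-KDM4C#2 (1 and 1, and 1 and 2, after the GC adjustment). HES7, with 63.3% GC, was at 26.1 ± 0.490 FPKM in Scramble, 35.6 ± 3.09 for Si-KDM4C#1 and 40.1 ± 1.38 for Si-KDM4C#2. It rose with both (0.43 and 0.60, or 0.16 and 0.27 after the GC adjustment). HES2 was at 2.26 ± 0.107 FPKM in Scramble and rose to 3.39 ± 0.185 with Si-KDM4C#1 (0.43, or 0.28 with an adjusted p of 0.054 after the GC adjustment). It fell to 0.869 ± 0.278 with Si-KDM4C#2 (-0.81), and the direct difference was -1.24. HES2 passed the filter through Scramble and Si-KDM4C#1 and not through the group in which it was low. No p-value is therefore given for its differences with Si-KDM4C#2. HES6, with 68.4% GC, rose with Si-KDM4C#1 (0.51, or 0.15 with an adjusted p of 0.183 after the GC adjustment) and was at 0.09 with Si-KDM4C#2, or -0.36 (adjusted p = 0.00688) after it. HEY2 fell with Si-KDM4C#1 (-0.55, adjusted p = 0.00079) and was at 0.20 with Si-KDM4C#2 (adjusted p = 0.11).

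NRARP, a small protein induced by Notch that feeds back on it, rose with both siRNAs. It was at 8.91, 6.93 and 5.90 FPKM in Scramble, 16.9, 15.3 and 18.7 in the Si-KDM4C#1 libraries, and 13.3, 14.4 and 14.5 in the Si-KDM4C#2 libraries. The changes were 1.14 (adjusted p = 2.22e-05) and 0.89 (adjusted p = 0.000167), or 0.79 and 0.46 (adjusted p = 0.0033) after the GC adjustment, and the direct difference was -0.25 (adjusted p = 0.0967).

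Among genes also driven by many other signals, the siRNAs differed most at CDKN1A, which encodes the cell cycle inhibitor p21 (direct difference -3.25). It was at 207 ± 10.1 FPKM in Scramble, 464 ± 42.9 with Si-KDM4C#1 (1.16, adjusted p = 3.6e-07) and 47.8 ± 1.64 with Si-KDM4C#2 (-2.09, adjusted p = 3.5e-08). CCND1, the gene of cyclin D1, was at 31.0 ± 1.75, 48.6 ± 1.05 (0.63) and 12.1 ± 0.761 FPKM (-1.29). MYC rose with both, from 113 ± 6.84 FPKM to 326 ± 16.1 (1.52) and 165 ± 3.28 (0.55). ID1 was at 158 ± 5.64, 78.7 ± 5.14 and 160 ± 3.09 FPKM, a direct difference of 1.01 (adjusted p = 1.8e-07).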

How the data were processed

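Total RNA was sequenced as 9 libraries (Illumina NovaSeq, paired-end). The authors deposited FPKM per gene and library on GRCh38, and their processing notes name FastQC 0.11.5, HISAT2 2.1.0, StringTie 1.3.3b, DESeq 1.28.0 and featureCounts, with no role given. For 97.48% of the genes the deposited FPKM came out as whole fragments (within 0.05) with GENCODE release 29 exon lengths. These gave the depth, which sets counting error only.

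The 14363 genes whose mean reached 1 FPKM in a group entered limma-trend (limma 3.58.1, R 4.3.3), fitted to log2(FPKM + 1) of all 9 libraries at once, with Benjamini-Hochberg adjustment over all these genes. NOTCH3 and DLL1 were below this filter and are described by their values. The script was tested on simulated data. The GC adjustment was a lowess fit per library (span 0.3) to the GC content of the longest transcript. Further alternatives were a pseudocount of 0.1, quantile normalization, no filter, at least 1 FPKM in every library, the 6 libraries of a comparison alone, the replicate block without and with the GC adjustment, no fold change limit, limma voom on recovered fragments (at least 10 in at least 3 libraries), and leaving out each library. Plots used Python 3.11.15 and matplotlib 3.10.9.

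The members and gene lists were chosen with earlier results of these data known. Named besides the members were KDM4C, RBPJ, ADAM10, NCSTN, NRARP, pathway genes called in any comparison, and the 3 genes most like the member with the widest range. DLL3, MAML2, POFUT1, DNER, HES2, HES6, HES7, HEY2, DLL4, NOTCH4 and the marker genes were named after their values were seen.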

Additional observations from a re-analysis of the deposited data

Results flagged for a closer look

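The responses of 5 members to the 2 siRNAs differed by a test of the difference itself, Si-KDM4C#2 against Si-KDM4C#1 in limma-trend. The log2 difference was -0.89 for NOTCH1 (adjusted p = 5.95e-06), -0.84 for JAG2 (adjusted p = 1.2e-05), -0.74 for JAG1 (adjusted p = 6.28e-05), -0.36 for NOTCH2 (adjusted p = 0.000533) and -0.34 for HEY1 (adjusted p = 0.012). Over all tested genes, 26.5% were lower and 35.9% higher with Si-KDM4C#2 at an FDR below 0.05. In each of the 5 members all 3 Si-KDM4C#2 libraries were below all 3 Si-KDM4C#1 libraries. The same libraries gave the test, so this is no further evidence. HES1 and HES4 likewise had no overlap between the siRNAs and did not pass the test. No share of all genes without overlap is given. KDM4C itself was lower with Si-KDM4C#2, at 0.287 ± 0.054 FPKM against 1.14 ± 0.040 (mean ± SD, n = 3), and whether the depth of the knockdown has a part in these differences was not tested.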

How the results depend on the processing

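No member was called at an FDR below 0.05 and a fold change above 2 under the main settings. Without the fold change limit 3 were higher and 2 lower for Si-KDM4C#1, 1 and 4 for Si-KDM4C#2, and 5 lower in the direct comparison. Limma voom called 2 higher with Si-KDM4C#1, 1 lower with Si-KDM4C#2 and 3 lower between the siRNAs. A pseudocount of 0.1 called 1 lower with Si-KDM4C#2 and 2 lower between the siRNAs. Limma voom and the pseudocount of 0.1 also called more of all genes than the main settings did. A smaller pseudocount, or none, gives larger fold changes for low genes. Under the main settings, leaving out any 1 library left the calls at 0. After the GC adjustment the rises of HES4 no longer passed in limma-trend. It was at -0.14 with Si-KDM4C#1 (adjusted p = 0.0839) and -0.055 with Si-KDM4C#2 (adjusted p = 0.489). NOTCH1 with Si-KDM4C#2 was near 0 under the main settings (adjusted p = 0.969) and lower after the GC adjustment (-0.32, adjusted p = 0.000834). The signs after the GC adjustment were the same with the replicate block. NOTCH1, JAG2 and LFNG with Si-KDM4C#1, NOTCH2, JAG1, LFNG and HEY1 with Si-KDM4C#2, and the 5 differences between the siRNAs kept their direction and stayed past an FDR of 0.05 in every alternative in which they were tested, and in all fits that left out a library. JAG1 was not tested with at least 1 FPKM in every library, and NOTCH3 and DLL1 could not be compared in most fits.

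Replicate numbers did not clearly pair the libraries. The correlation of deviations from the group means averaged 0.016 (-0.046 to 0.055) over 9 same-number pairs and -0.008 (-0.053 to 0.064) over 18 others. However, 6 of 9 libraries were closest to their own number, so whether the numbers mark pairs is not settled. With the replicate block 0 members were called in each comparison, as without it, and HES4 between the siRNAs passed the FDR alone (adjusted p = 0.0227). Depth limits NOTCH3 and DLL1 most, and HES1 next.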
